A study of Mus musculus with 14 samples.

Results

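The 10 genes described here carry growth hormone signalling in the hepatocyte and part of its output. They are the receptor Ghr and its kinase Jak2, the transcription factors Stat5a and Stat5b, the feedback inhibitors Socs2 and Cish, the secreted products Igf1 and Igfals, and Bcl6 and Cux2, which act on sex-biased expression in mouse liver. Each gene was read by the probe set annotated with its symbol alone, and where there was more than 1, by the brightest on average over all arrays. All 10 of 10 members were found, among 22180 genes chosen in the same way, and no filter on level was applied.

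Levels are log2 intensities from Affymetrix whole-transcript arrays, 1 for each liver of 14 male C57BL/6 mice. Every mouse, controls included, carried Alb-cre, a transgene in which the albumin promoter drives Cre recombinase in hepatocytes. Whether other liver cells keep their Lmna, the gene of lamins A and C, was not measured. KO mice had 2 floxed copies of Lmna (labelled LMNA flx/flx), HET mice had 1 (flx/+) and WT mice had none (+/+). On standard chow there were 3 KO livers (arrays H1, H2 and I1, aged 38.9 weeks), 3 HET livers (F1, F2 and P1, aged 24 to 26.4 weeks) and 2 WT livers (G1 and N1, aged 27 and 24.6 weeks). On the high-fat diet (HFD), which was the Surwit diet with 42 g/L of carbohydrate in the water (55% fructose and 45% sucrose), there were 3 KO livers (C2, C3 and C4, aged 35.3 weeks) and 3 HET livers (A2, B1 and B2, aged 30 to 30.4 weeks). Each diet was given for 14 weeks, and no WT liver on HFD was analysed here. Every KO mouse was older than every HET mouse on its diet, by 13.3 weeks on chow and 5.17 weeks on HFD on average, so age and genotype cannot be told apart. In bulk tissue, fewer cells of a type and less RNA per cell cannot be told apart either.

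Growth hormone from the pituitary binds the receptor GHR on hepatocytes, which activates the kinase JAK2 bound to it. JAK2 phosphorylates STAT5, and STAT5 enters the nucleus and drives genes such as Igf1, Igfals, Socs2 and Cish. IGF1 circulates as the main endocrine mediator of growth, in a complex with a binding protein and with ALS, the protein of Igfals, while SOCS2 and CIS, the protein of Cish, dampen the signal. In mice the hormone is released in pulses in males and more evenly in females, and this pattern sets many sex differences of the liver. BCL6 is a male-enriched repressor that binds many STAT5 sites, and CUX2 is a factor enriched in female liver.

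Lmna itself, read by a dim probe set, was lower in KO than in WT livers on chow (-0.62 ± 0.14, adjusted p = 0.0393), a call lost when any 1 array other than H1, P1 or B2 was left out (adjusted p 0.0513 to 0.190). Its KO and HET ranges on HFD overlapped (3.90 to 4.07 against 4.07 to 4.30). Arrays of 1 group correlated at 0.989 to 0.994 over all genes, arrays of different groups at 0.980 to 0.994, and array medians lay between 2.21 and 2.30. The 13 measured hepatocyte markers had mean levels of 10.56 to 10.64 in KO and 10.86 to 10.97 in HET livers on HFD, and of 10.77 to 10.87 in KO, 10.88 to 11.00 in HET and 10.95 in WT livers on chow, and none of them lay below the array medians. Changes below are differences of group means on the log2 scale with the standard error of limma, and a gene is called at a Benjamini-Hochberg adjusted p under 0.05 over all 22180 genes. The mice of a group are separate animals.

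STAT5 binds palindromes of the form TTCNNNGAA, a pattern that is the same on both strands, although the middle bases of a single site need not be. RefSeq promoter windows of GRCm38.p6, from 250 bases before to 50 bases after the annotated start, were at hand for 9 of the 10 members (16 windows), all but Socs2. The palindrome stood in 5 of these 16 windows, of Cish, Igfals and Bcl6, and in 8.30% of all 32851 windows of that length (2726 windows). No match was found in the windows of Ghr, Jak2, Stat5a, Stat5b, Igf1 or Cux2. Of genes called below, 3 windows are shown, with the palindrome in capitals: that of Cish, whose matches lie at the start, the Igfals window with the match nearer its start, and the Bcl6 window with the most matches.
Cish promoter, chr9:107296409-107296708, plus strand: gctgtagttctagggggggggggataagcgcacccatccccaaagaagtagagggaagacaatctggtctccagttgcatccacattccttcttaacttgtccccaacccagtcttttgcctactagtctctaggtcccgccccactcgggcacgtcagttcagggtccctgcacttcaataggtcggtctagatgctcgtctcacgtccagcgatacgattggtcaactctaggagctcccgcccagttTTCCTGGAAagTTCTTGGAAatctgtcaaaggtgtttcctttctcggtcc
Igfals second promoter, chr17:24877981-24878280, plus strand: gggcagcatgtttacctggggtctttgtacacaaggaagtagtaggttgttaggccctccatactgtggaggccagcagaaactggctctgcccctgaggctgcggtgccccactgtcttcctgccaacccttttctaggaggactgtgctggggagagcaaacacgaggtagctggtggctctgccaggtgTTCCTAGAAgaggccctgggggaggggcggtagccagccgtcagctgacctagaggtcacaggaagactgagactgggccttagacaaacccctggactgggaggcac
Bcl6 second promoter, chr16:23981234-23981533, minus strand: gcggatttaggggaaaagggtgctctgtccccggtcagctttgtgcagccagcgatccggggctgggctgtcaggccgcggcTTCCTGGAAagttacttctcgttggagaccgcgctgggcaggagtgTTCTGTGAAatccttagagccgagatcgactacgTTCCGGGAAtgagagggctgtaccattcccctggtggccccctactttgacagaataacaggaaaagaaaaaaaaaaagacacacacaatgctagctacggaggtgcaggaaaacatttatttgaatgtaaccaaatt
In the Cish window TTCCTGGAA began at the annotated start and TTCTTGGAA began 11 bases after it. A window with at least 2 matches occurred 150 times, in 0.457% of all windows. The Igfals window held TTCCTAGAA 58 bases before the start, and another Igfals window held TTCTCAGAA 236 bases before its own start. The Bcl6 window held TTCCTGGAA, TTCTGTGAA and TTCCGGGAA at 168, 122 and 88 bases before the start, and 11 of all windows (0.0335%) held 3 or more. These matches describe the letters of the windows and were not tested as binding sites.

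**Figure D1:**
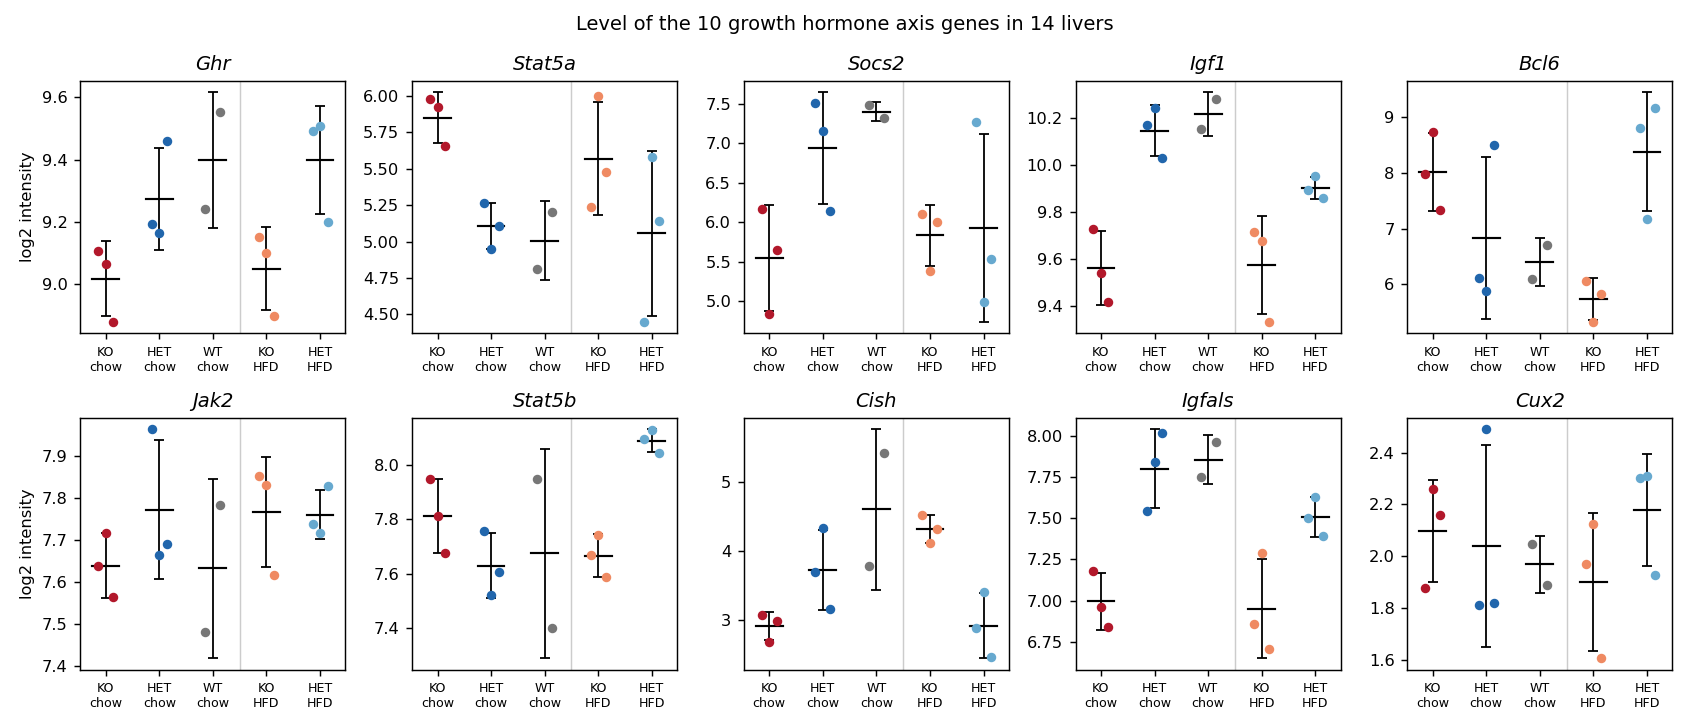
Levels of the 10 genes in log2 intensity, 1 point per liver, for KO, HET and WT livers on chow and KO and HET livers on HFD. Bars give the mean and SD (n = 3, WT n = 2), and each panel has its own scale. Igf1 and Igfals are lower in KO than in HET livers on both diets, with no overlap, while Cish is lower in KO than in HET livers on chow and higher on HFD.

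The clearest changes were in the secreted products. Igf1 and Igfals were lower in every KO liver than in every HET liver on the same diet, and lower than in both WT livers on chow. Igf1 stood at 9.73, 9.54 and 9.42 in KO livers H1, H2 and I1 on chow, against 10.17, 10.24 and 10.03 in HET livers F1, F2 and P1, and 10.15 and 10.28 in WT livers G1 and N1. On HFD it stood at 9.71, 9.68 and 9.33 in KO livers C2, C3 and C4, against 9.90, 9.95 and 9.86 in HET livers A2, B1 and B2. The KO values of both diets covered almost the same range, and the HET values on HFD lay between the KO values and the chow controls. On chow Igf1 fell by 0.58 ± 0.12 in KO against HET livers (adjusted p = 0.0311), to 0.667 times the HET level, and by 0.65 ± 0.14 against WT livers (adjusted p = 0.0320). On HFD the difference was -0.33 ± 0.12 (adjusted p = 0.148) and was not called.

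Igfals, whose protein stabilises IGF1 in the circulation, showed larger differences in the same places. It stood at 7.18, 6.96 and 6.84 in KO livers H1, H2 and I1, against 7.54, 7.84 and 8.01 in HET livers F1, F2 and P1, and 7.75 and 7.96 in WT livers G1 and N1. Under HFD its levels were 6.86, 7.29 and 6.71 in KO livers C2, C3 and C4, against 7.50, 7.63 and 7.39 in HET livers A2, B1 and B2. No KO value on either diet reached the lowest HET value of that diet. On chow Igfals fell by 0.80 ± 0.17 in KO against HET livers (adjusted p = 0.0264), to 0.573 times the HET level, and by 0.86 ± 0.19 against WT livers (adjusted p = 0.0355). On HFD it differed by -0.56 ± 0.17 (adjusted p = 0.0618), which was called without C3 (-0.72, adjusted p = 0.0214), when dim probe sets were left out (adjusted p = 0.0371) and with a trended variance prior (adjusted p = 0.0426). Averaged over both diets, Igf1 fell by 0.46 ± 0.09 in KO against HET livers (adjusted p = 0.00523) and Igfals fell by 0.68 ± 0.12 (adjusted p = 0.00262). Neither difference was shown to depend on diet, with interactions of 0.26 ± 0.18 for Igf1 (adjusted p = 0.673) and 0.25 ± 0.23 for Igfals (adjusted p = 0.773).

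Igf1 and Igfals were the only 2 of 10 members called in KO against HET livers on chow, both lower, where 1.92% of all genes were called and 0.478% were called lower. They were also the only 2 called in KO against WT livers on chow, both lower, where 1.65% of all genes were called and 0.41% were called lower. The groups did not overlap for 5 of 10 members in KO against HET livers on chow (18.9% of all genes), and for 7 of 10 in KO against WT livers (28.7% of all genes). The median change of the 10 members in KO against HET livers on chow was -0.19, against -0.01 over all genes. The chow calls depended on single arrays. That of Igf1 against HET was lost without F1, F2, H2 or I1 (adjusted p 0.0956 to 0.142) and that of Igfals without F2, P1, H2 or I1 (0.0695 to 0.121). Those against WT were lost for Igf1 without G1, N1, H2 or I1 (0.0994 to 0.255) and for Igfals without G1, N1, F2, H2, I1, A2 or C2 (0.0533 to 0.277). All 4 were lost with age as a linear term, where Igfals turned to 0.70 ± 0.99 against HET and 0.62 ± 0.98 against WT. KO ages did not vary within a group, so the age slope rests on HET and WT mice and this fit cannot tell age from genotype. The Igf1 and Igfals calls averaged over both diets were kept when any 1 array was left out, and were lost with the age term.

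Of the 13 hepatocyte markers, 0 were called higher and 4 lower in KO against HET livers on HFD. Of all genes 5.5% were called higher there and 2.06% lower. On chow limma called 0 of them, and 2 passed an unadjusted p under 0.05, as 13.4% of all genes did. Their part in the Igf1 and Igfals values was not tested.

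The receptor and its kinase showed small differences. Ghr stood at 9.11, 9.07 and 8.88 in KO livers H1, H2 and I1, against 9.19, 9.17 and 9.46 in HET livers F1, F2 and P1, and 9.24 and 9.55 in WT livers G1 and N1. The HFD values were 9.15, 9.10 and 8.90 in KO livers C2, C3 and C4, against 9.49, 9.51 and 9.20 in HET livers A2, B1 and B2. Every KO value of Ghr lay below every control value of the same diet, by a small margin. The difference was -0.25 ± 0.13 on chow (adjusted p = 0.451), -0.38 ± 0.15 against WT (adjusted p = 0.335) and -0.35 ± 0.13 on HFD (adjusted p = 0.155), and none was called. Over both diets it was -0.30 ± 0.10 (adjusted p = 0.0682), and it was called without B2 (adjusted p = 0.0402), when dim probe sets were left out (adjusted p = 0.0376), after a second quantile normalisation (adjusted p = 0.0475) and with a trended variance prior (adjusted p = 0.0365). Jak2, the kinase that GHR carries, stood between 7.48 and 7.96 in all 14 livers, and its groups overlapped in every comparison. Its KO minus HET difference was -0.13 ± 0.12 on chow (95% interval -0.39 to 0.13) and 0.01 ± 0.12 on HFD (95% interval -0.25 to 0.27).

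The STAT5 genes, neighbours on chromosome 11 whose transcripts are similar enough that probes may read both, differed from each other in pattern. Stat5a stood at 5.98, 5.92 and 5.66 in KO livers H1, H2 and I1, against 5.26, 4.95 and 5.11 in HET livers F1, F2 and P1, and 4.81 and 5.20 in WT livers G1 and N1. Under HFD it read 5.24, 6.00 and 5.48 in KO livers C2, C3 and C4, against 4.45, 5.58 and 5.14 in HET livers A2, B1 and B2. The chow groups were apart and the HFD groups overlapped. Stat5a differed by 0.74 ± 0.26 on chow (adjusted p = 0.201), by 0.84 ± 0.29 against WT (adjusted p = 0.229) and by 0.51 ± 0.26 on HFD (adjusted p = 0.281). Over both diets Stat5a was higher in KO livers by 0.63 ± 0.18 (adjusted p = 0.0460), a call that was lost when any 1 of G1, N1, F1, F2, P1, H1, H2, I1, A2, B2, C3 or C4 was left out (adjusted p 0.0528 to 0.104) and with the age term (adjusted p = 0.669). Over both diets 3 of 10 members were called, Stat5a higher and Igf1 and Igfals lower, where 9.43% of all genes were called, 6.52% higher and 2.9% lower.

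STAT5A is abundant in immune cells, whereas STAT5B is the main form of the hepatocyte. Over both diets 6.52% of all genes were called higher in KO livers and 2.9% lower. Of 15 macrophage markers, 6 were called higher and 1 lower in that comparison. Their mean levels were 5.97 to 6.54 in KO, 5.38 to 6.03 in HET and 5.39 to 5.87 in WT livers on chow, and 6.59 to 6.78 in KO and 5.62 to 6.11 in HET livers on HFD, and none lay below the array medians. Among other immune markers limma called 0 of 13 lymphocyte and 0 of 11 neutrophil genes over both diets. At an unadjusted p under 0.05 there were 4 and 1 of them, beside 22.2% of all genes, and 9 of the neutrophil genes lay below the array medians. Over both diets stellate cell markers (6 of 14 higher and 2 lower) and cholangiocyte markers (3 of 8 higher) were called as well. On HFD alone 2 of the 13 lymphocyte genes were called higher and 0 lower (median 0.53), where 5.5% of all genes were called higher. Their mean levels were then 3.42 to 3.72 in KO and 2.86 to 3.15 in HET livers, and 3 of the 13 lay below the array medians. The part of these cells in the Stat5a values was not tested.

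Stat5b stood at 7.95, 7.81 and 7.68 in KO livers H1, H2 and I1, against 7.76, 7.52 and 7.60 in HET livers F1, F2 and P1, and 7.95 and 7.40 in WT livers G1 and N1. On HFD it stood at 7.67, 7.74 and 7.59 in KO livers C2, C3 and C4, against 8.09, 8.13 and 8.04 in HET livers A2, B1 and B2. The HET livers on HFD were the highest of all 14 and lay close together. The KO minus HET difference was 0.18 ± 0.14 on chow (adjusted p = 0.631) and -0.42 ± 0.14 on HFD (adjusted p = 0.0829). The HFD difference was called without G1 or without N1 (adjusted p = 0.0351) and when dim probe sets were left out (adjusted p = 0.0476). HFD minus chow was 0.46 ± 0.14 in HET livers (adjusted p = 0.239) and -0.15 ± 0.14 in KO livers (adjusted p = 0.770), and the interaction was not called (-0.61 ± 0.19, adjusted p = 0.332).

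**Figure D2:**
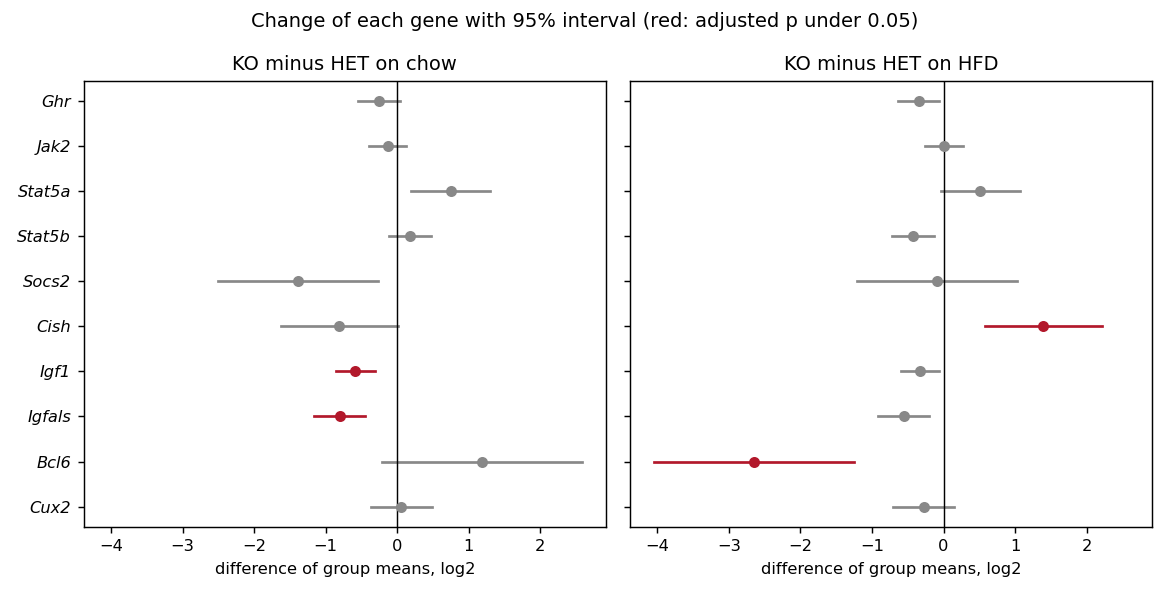
Difference of group means in log2, KO minus HET, for each gene on chow (left) and on HFD (right). Points are the estimates, lines their 95% intervals, and red marks an adjusted p under 0.05. Igf1 (-0.58) and Igfals (-0.80) are called on chow, and Cish (1.39) and Bcl6 (-2.65) on HFD, where the points of both lie on the other side of 0 from their chow points.

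The feedback inhibitors varied widely between livers of 1 group. Socs2, a STAT5-driven brake on the receptor, stood at 6.16, 4.84 and 5.65 in KO livers H1, H2 and I1, against 7.50, 7.15 and 6.14 in HET livers F1, F2 and P1, and 7.48 and 7.31 in WT livers G1 and N1. Under HFD its levels were 6.11, 5.39 and 6.00 in KO livers C2, C3 and C4, against 7.26, 4.99 and 5.54 in HET livers A2, B1 and B2. The KO chow values lay below both WT values and overlapped with HET only at P1, whereas on HFD 2 of the 3 HET livers were as low as the KO livers. The differences were -1.38 ± 0.52 on chow (adjusted p = 0.241), -1.85 ± 0.58 against WT (adjusted p = 0.181) and -0.10 ± 0.52 on HFD (adjusted p = 0.945), where leaving out 1 array gave -0.57 to 0.57. Second probe sets were read in a separate limma fit of all 23521 probe sets with 1 symbol, with p adjusted over these. There a second, dimmer Socs2 probe set gave -0.91 ± 0.20 for KO against WT livers (adjusted p = 0.0433) and -0.22 ± 0.18 for KO against HET livers on chow (adjusted p = 0.683).

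Cish, the gene of CIS, a STAT5 target that competes with STAT5 at the receptor, had differences of opposite sign on the 2 diets. It stood at 3.07, 2.69 and 2.98 in KO livers H1, H2 and I1, against 3.69, 4.32 and 3.16 in HET livers F1, F2 and P1, and 3.78 and 5.42 in WT livers G1 and N1. The HFD values were 4.51, 4.11 and 4.31 in KO livers C2, C3 and C4, against 2.88, 3.41 and 2.47 in HET livers A2, B1 and B2. Every KO liver was below every HET liver on chow and above every HET liver on HFD. All 14 values lay between 2.47 and 5.42, the lowest of them close to the array medians. On HFD Cish was higher in KO livers by 1.39 ± 0.38 (adjusted p = 0.0415). On chow it differed by -0.81 ± 0.38 against HET (adjusted p = 0.381) and by -1.68 ± 0.42 against WT (adjusted p = 0.0757). The HFD call was lost without F1, H1, H2, I1, A2, B2, C2, C3 or C4 (adjusted p 0.0530 to 0.130), with a random block for the array-name letter (adjusted p = 0.0544) and with the age term (1.87, adjusted p = 0.504), and the difference against WT was -2.50 without G1 (adjusted p = 0.0123), -0.86 without N1 and -1.73 for the mean of both Cish probe sets (adjusted p = 0.0253).

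The second Cish probe set gave the same directions, and again KO and HET livers did not overlap on either diet, although C4 and B1 lay side by side on HFD. It stood at 2.73, 2.69 and 2.67 in KO livers H1, H2 and I1, against 4.14, 3.73 and 3.26 in HET livers F1, F2 and P1, and 3.88 and 5.06 in WT livers G1 and N1. Under HFD it read 4.26, 4.58 and 3.33 in KO livers C2, C3 and C4, against 2.87, 3.30 and 3.13 in HET livers A2, B1 and B2. In the separate fit of all probe sets with 1 symbol, its difference passed in KO against WT livers (-1.78 ± 0.37, adjusted p = 0.0320). It did not pass on HFD (0.95 ± 0.33, adjusted p = 0.117) or in KO against HET livers on chow (-1.02 ± 0.33, adjusted p = 0.186).

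Bcl6, the repressor that is more abundant in male than in female mouse liver, had nearly the reverse order of group means to Cish. It stood at 7.97, 8.74 and 7.33 in KO livers H1, H2 and I1, against 6.10, 5.88 and 8.50 in HET livers F1, F2 and P1, and 6.10 and 6.71 in WT livers G1 and N1. On HFD it stood at 6.06, 5.33 and 5.83 in KO livers C2, C3 and C4, against 8.81, 7.18 and 9.18 in HET livers A2, B1 and B2. The HFD groups were far apart, and on chow HET liver P1 lay among the KO values. On HFD Bcl6 fell by 2.65 ± 0.65 in KO livers (adjusted p = 0.0255), to 0.159 times the HET level. On chow it differed by 1.19 ± 0.65 against HET (adjusted p = 0.468) and by 1.62 ± 0.72 against WT (adjusted p = 0.407). The HFD call was lost without A2, B2, C2, C3 or C4 (adjusted p 0.0562 to 0.0880) and with the age term, where the difference was 0.82 ± 1.39.

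**Figure D3:**
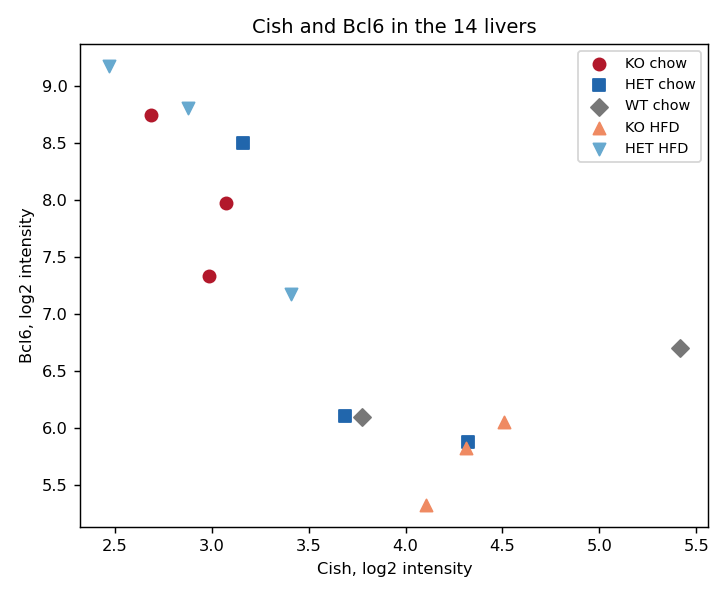
Level of Bcl6 against level of Cish, both in log2 intensity, 1 point per liver, with a symbol for each group. KO livers on chow and HET livers on HFD lie at low Cish and high Bcl6, and KO livers on HFD lie at high Cish and low Bcl6.

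The plot of Bcl6 against Cish shows how the groups fell. KO livers on chow had Cish at 2.69 to 3.07 with Bcl6 at 7.33 to 8.74, and HET livers on HFD had Cish at 2.47 to 3.41 with Bcl6 at 7.18 to 9.18. KO livers on HFD had Cish at 4.11 to 4.51 with Bcl6 at 5.33 to 6.06. The HET chow group was split, with liver P1 at 3.16 for Cish and 8.50 for Bcl6, near the KO chow livers, and F1 and F2 at 3.69 and 4.32 for Cish and 6.10 and 5.88 for Bcl6. By group mean Cish ran, high to low, WT chow, KO HFD, HET chow, HET HFD and KO chow, and Bcl6 ran HET HFD, KO chow, HET chow, WT chow and KO HFD. These group means spanned 1.68 for Cish and 2.65 for Bcl6, beside pooled SDs within groups of 0.54 and 0.94.

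Cux2, a factor enriched in female mouse liver, stayed near the array medians in every liver, between 1.61 and 2.49. It differed by 0.06 ± 0.20 between KO and HET livers on chow (95% interval -0.37 to 0.49) and by -0.28 ± 0.20 on HFD (95% interval -0.71 to 0.15). At this signal a fall of Cux2 could not have been seen, and no rise was called.

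Cish and Bcl6 were thus the 2 of 10 members called in KO against HET livers on HFD, 1 higher and 1 lower, where 7.56% of all genes were called, 5.5% higher and 2.06% lower. The groups did not overlap there for 6 of 10 members, 5 lower (Ghr, Stat5b, Igf1, Igfals and Bcl6) and Cish higher, against 26.2% of all genes. The median change of the members was -0.30, against -0.02 over all genes.

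No member was called for diet within a genotype, for the interaction, or for HET against WT livers. In KO livers, HFD minus chow was 1.40 ± 0.38 for Cish (adjusted p = 0.165) and -2.28 ± 0.65 for Bcl6 (adjusted p = 0.190), and for these 2 the groups did not overlap (0.316% of all genes were called, and 18.9% did not overlap). In HET livers it was -0.81 ± 0.38 for Cish (adjusted p = 0.495) and 1.56 ± 0.65 for Bcl6 (adjusted p = 0.434), and the 2 members whose groups did not overlap were Stat5b, which was higher, and Igf1, which differed by -0.24 ± 0.12 (0.198% of all genes were called, and 13.6% did not overlap). At an unadjusted p under 0.05, 2 members passed in each of these diet comparisons, beside 11.1% of all genes in KO and 10.2% in HET livers. In Bcl6 and Cish the genotype difference on HFD minus that on chow was -3.84 ± 0.92 (adjusted p = 0.192) and 2.20 ± 0.53 (adjusted p = 0.204). These were not called in the interaction, where 0.0361% of all genes were called and 3 members and 9.86% of all genes passed an unadjusted p under 0.05. The Bcl6 interaction was called without HET chow liver P1 (-4.67, adjusted p = 0.0260). In a fit of the KO livers alone Cish was called for diet (adjusted p = 0.0305).

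Between HET and WT livers on chow limma called 0 of 10 members and 0% of all genes, and 0 members and 954 genes (4.3%) passed an unadjusted p under 0.05. The groups overlapped for all 10 members, and did not overlap for 17.9% of all genes. Cish differed by -0.87 ± 0.42 (adjusted p = 0.999), and by -1.69 without G1 and -0.05 without N1. For Igf1 it was -0.07 ± 0.14 (95% interval -0.37 to 0.23) and for Igfals -0.05 ± 0.19 (95% interval -0.46 to 0.35), both smaller than the KO differences. Each chow group enters 2 of the 3 chow comparisons, so their values are not independent.

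The other genes of the pathway were taken from lists of the receptor complex, of inhibitors, of the IGF system and of liver factors. The lists were chosen with earlier results of these data known, so their counts beside the shares of all genes only describe. Among 14 measured partners and transducers of the receptor, Egfr was called lower and Stat2 higher in KO against HET livers over both diets, and the other 12 were not called, a share near the 9.43% of all genes (median -0.07, against -0.02 over all genes). Egfr, the EGF receptor, whose liver level is raised by growth hormone in mice, stood at 10.65, 10.61 and 10.18 in KO livers H1, H2 and I1, against 11.20, 11.12 and 11.19 in HET livers F1, F2 and P1, and 11.16 and 10.96 in WT livers G1 and N1. Under HFD its levels were 9.82, 9.90 and 9.42 in KO livers C2, C3 and C4, against 11.15, 11.00 and 11.15 in HET livers A2, B1 and B2. All 6 KO livers were thus below all 8 others. Egfr fell by 1.39 ± 0.15 on HFD (adjusted p = 1.62e-04) and by 0.69 ± 0.15 on chow (adjusted p = 0.0329), and the chow call was lost without F1, F2, P1, H2 or I1 (adjusted p 0.0632 to 0.135). Stat2, a transducer of interferon signals, was higher by 0.63 ± 0.12 on chow (adjusted p = 0.0157), a call lost without F1 or I1 (adjusted p 0.0697 and 0.0719), and by 0.44 ± 0.08 over both diets (adjusted p = 0.00444).

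Of 18 inhibitors of JAK-STAT signalling other than the members, 1 was called higher and 1 lower over both diets (median 0.01), again a share near that of all genes. The higher one was Ptprc, the phosphatase CD45 of blood cells, at 0.80 ± 0.15 (adjusted p = 0.00428), in the samples with the higher macrophage markers given above. The lower one was Pias2, an inhibitor of STAT factors, at -0.32 ± 0.08 (adjusted p = 0.0232), a call lost without F1, I1, C2 or C3 (adjusted p 0.0508 to 0.0600), and single arrays left out gave between 1 and 4 called members, with 4 without H1. On chow limma called 0 of the 18, and 4 passed an unadjusted p under 0.05, beside 13.4% of all genes.

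Of 14 genes of the IGF system other than the members, 0 were called in KO against HET livers on chow, and 1 was called without F1. At an unadjusted p under 0.05, 1 passed there, beside 13.4% of all genes. On HFD 1 was called higher and 2 lower, where 5.5% of all genes were called higher and 2.06% lower, and without A2, B1 or C2 only 1 of the 3 was called. Igfbp2, a binding protein that the liver secretes, stood on HFD at 9.27, 9.16 and 9.0 in KO livers C2, C3 and C4, against 10.23, 10.12 and 10.76 in HET livers A2, B1 and B2. On chow it stood at 10.53, 10.66 and 9.95 in KO livers H1, H2 and I1, against 10.55, 10.26 and 10.83 in HET livers F1, F2 and P1. The KO livers on HFD thus stood apart from every other group. On HFD Igfbp2 fell by 1.23 ± 0.22 in KO livers (adjusted p = 0.00409), whereas the chow difference was -0.17 ± 0.22 (adjusted p = 0.816). Insr, the insulin receptor, fell by 0.47 ± 0.11 on HFD (adjusted p = 0.0181), lost without A2, B1, C2 or C3 (adjusted p 0.0605 to 0.0724). Igfbp7, which is made largely by non-parenchymal cells, was higher by 0.59 ± 0.15 (adjusted p = 0.0308), lost without A2, B1, B2, C2 or C4 (adjusted p 0.0666 to 0.116). On HFD 5 of 14 stellate cell markers were called higher and 1 lower (median 0.63), their mean levels were 6.83 to 7.08 in KO and 6.10 to 6.41 in HET livers, and Timp1 alone lay below the array medians. Their part in the Igfbp7 values was not tested.

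**Figure D4:**
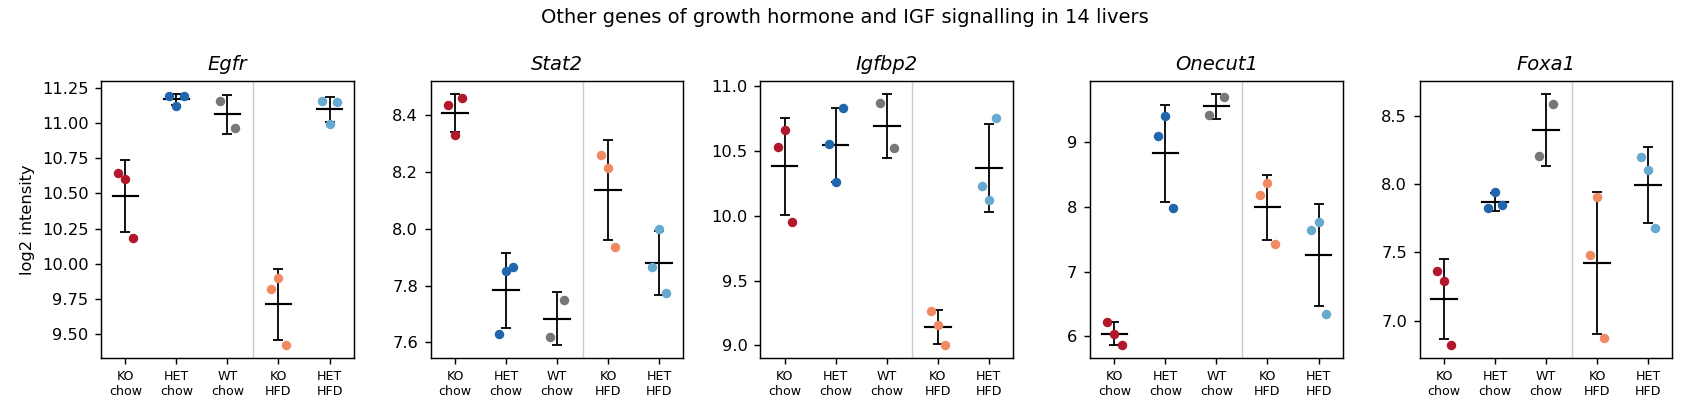
Levels in log2 intensity of 5 other genes of the pathway, 1 point per liver, with group mean and SD (n = 3, WT n = 2) and a scale for each panel. Egfr is below 10.7 in all 6 KO livers, Igfbp2 is low in KO livers on HFD, and Onecut1 is lowest in KO livers on chow.

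Among 12 measured liver factors that work with STAT5 or act on Ghr and Igf1 transcription, Onecut1, Onecut2 and Foxa1 were called lower over both diets and none higher. Of all genes 2.9% were called lower there and 6.52% higher, and the median change of the 12 was -0.24, against -0.02 over all genes. Without single arrays 1 to 4 of the 12 were called over both diets, 1 without F2, I1, C2 or C4 and 4 without P1. On HFD Hnf4a alone was called, lower by 0.36 ± 0.10 (adjusted p = 0.0423), where 2.06% of all genes were called lower. Hnf4a is also among the hepatocyte markers, and leaving out 1 array gave 0 to 3 called factors on HFD. Onecut1, the factor HNF6 that binds many liver promoters, stood on chow at 6.22, 6.04 and 5.87 in KO livers H1, H2 and I1, against 9.10, 9.41 and 7.98 in HET livers F1, F2 and P1, and 9.42 and 9.69 in WT livers G1 and N1. The HFD values were 8.19, 8.36 and 7.43 in KO livers C2, C3 and C4, against 7.65, 7.78 and 6.35 in HET livers A2, B1 and B2. It was thus low in all KO chow livers, while the HFD groups overlapped. Onecut1 differed by -2.79 ± 0.40 on chow (adjusted p = 0.00270), and its HFD difference was 0.73 ± 0.40 (adjusted p = 0.333), with an interaction of 3.52 ± 0.57 that was not called (adjusted p = 0.0544). Its call over both diets was lost without G1, N1, F1, F2, H1, H2, I1, A2, B1, C2 or C4 (adjusted p 0.0502 to 0.0968). Onecut2, its relative, fell by 0.52 ± 0.10 over both diets (adjusted p = 0.00408). Foxa1, a pioneer factor of liver, fell by 0.64 ± 0.17 over both diets (adjusted p = 0.0287), lost without F2, I1, A2, B1, C2 or C4 (adjusted p 0.0521 to 0.0763).

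Genes whose sex-biased expression follows growth hormone were counted in KO against HET livers on HFD. These lists were also chosen with earlier results of these data known, so their counts are no test of enrichment. Of 26 measured male-biased genes, 13 were called lower and 2 higher (median -0.70, against -0.02 over all genes), and of 26 measured female-biased genes, 9 were called higher and 0 lower (median 1.01), where 5.5% of all genes were called higher and 2.06% lower. With the age term 2 male-biased and 5 female-biased genes were called. On chow fewer were called, 4 male-biased genes lower and 1 higher (median -0.58) and 2 female-biased genes higher (median 0.43), where 1.92% of all genes were called. None of these genes was called in the interaction, where 0.0361% of all genes were called. There 10 male-biased and 5 female-biased genes passed an unadjusted p under 0.05, beside 9.86% of all genes. Leaving out 1 array gave 1 to 6 male-biased and 1 to 5 female-biased calls on chow, with 1 male-biased call without I1 and 5 female-biased calls without P1. The HFD counts come from the livers in which 4 of 13 hepatocyte markers were lower, and the part of these in the counts was not tested. Hsd3b5, a male-biased steroid dehydrogenase, stood on HFD at 3.38, 3.14 and 1.25 in KO livers C2, C3 and C4, against 9.29, 9.09 and 8.78 in HET livers A2, B1 and B2. Hsd3b5 fell (adjusted p = 1.62e-04). C4 lay below the array medians and C2 and C3 above them, and at this low signal the size of the fall is not given. Cyp2a4, a female-biased cytochrome, rose by 3.47 ± 0.52 (adjusted p = 0.00164). With the age term the calls given here for Egfr, Stat2, Ptprc, Pias2, Igfbp2, Insr, Igfbp7, Hnf4a, Onecut1, Onecut2, Foxa1 and Hsd3b5 were lost, and that of Cyp2a4 was kept. Hsd3b5, Cyp2a4 and Cyp4a12a belong to families of close relatives whose transcripts the probes may also read.

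Across the 14 livers the profiles most like that of Igf1, after each gene was centred on its own mean and among 6309 genes with a mean level of at least 6, were those of Otud6b, Rgl3, Spcs3 and Tom1l1. Their root mean square differences from Igf1 were 0.107, 0.123, 0.124 and 0.130, where the Igf1 profile itself had a root mean square of 0.291. For Socs2 the nearest were Noct, Hhex, Cabcoco1 and Lhpp, at 0.487, 0.582, 0.643 and 0.647 beside 0.900 for Socs2 itself, so that none followed it as closely.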

How the data were processed

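The sources are the labels of 14 liver arrays and 1 table of values. The values are log2 intensities per probe set that the authors deposited, made with RMA per the submitters' processing notes, which also name limma, both without versions. RMA corrects background, quantile-normalises probes and summarises them by median polish. Quantile normalisation gives all arrays 1 distribution, so a shift of all genes cannot be seen. The scanner output was not used here, and the genome build behind the array annotation is not stated there. The number of arrays limits the precision.

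Of 41345 probe sets, 23521 carried 1 symbol, 1814 several and 16010 none. For 1082 genes with several probe sets the brightest was kept, which left 22180 genes. Limma 3.58.1 in R 4.3.3 was fitted to all 14 arrays with 1 mean per group (9 residual and 3.83 prior degrees of freedom) and 8 contrasts, each adjusted by Benjamini and Hochberg over all genes, and was tested on simulated data. Members and lists were chosen with earlier results of these data known. Named genes are Lmna, the members, up to 4 genes per list by p over both diets with up to 3 called ones per other contrast, and the 4 profiles nearest to Igf1 and to Socs2 by root mean square difference. Not all of them are described in the results. Of the sex-biased lists Hsd3b5, Cyp2a4 and Cyp4a12a are, although over both diets Serpina1e had a smaller p than Hsd3b5, and Cd36 and Gas6 a smaller p than Cyp2a4. Replicate numbers follow accession order and pair nothing. Alternatives were other variance priors, normalisations, filters and probe set choices, a fit of the compared groups alone, the array letter as a block, age as a term, an adjusted p under 0.01 and leaving out each array.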

Additional observations from a re-analysis of the deposited data

Results flagged for a closer look

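Cish was marked because its KO minus HET difference has opposite directions on the 2 diets. Every KO liver lay above every HET liver on HFD (1.39 ± 0.38, adjusted p = 0.0415) and below every HET liver on chow (-0.81 ± 0.38, adjusted p = 0.381). The difference between the diets was 2.20 ± 0.53 and did not pass the limma test adjusted over all genes (adjusted p = 0.204). The second Cish probe set gave 1.97 ± 0.47 (adjusted p = 0.197 in the separate fit of all probe sets with 1 symbol). The lowest values lie close to the array medians, and age differs between the groups by 13.3 weeks on chow and 5.17 weeks on HFD. The part of either in the result was not tested.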

How the results depend on the processing

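No paired analysis was possible because the array names carry no replicate number shared across groups. Members called moved from 2 to 0 in KO against HET and in KO against WT livers on chow when only the compared groups were fitted, with a linear age term, and at an adjusted p under 0.01. On HFD, KO against HET gave 0 with age and at an adjusted p under 0.01, 1 with the array letter as a random block (Cish lost) and 4 when dim probe sets were left out (Stat5b, adjusted p = 0.0476, and Igfals, adjusted p = 0.0371, added). Over both diets 3 became 0 with age, and HFD against chow in KO livers gave 1 when only the compared groups were fitted. Leaving out 1 array gave 0 to 2 members in KO against HET and in KO against WT livers on chow, 0 to 3 on HFD, 2 to 3 over both diets and 0 to 1 in the interaction. The genes called were 199 to 520 on chow against HET, 154 to 411 against WT, 971 to 1788 on HFD and 1473 to 2034 over both diets. With age they were 201, 124, 249 and 211, and at an adjusted p under 0.01 they were 157, 151, 705 and 1001, while the compared groups alone gave 216 and 162 on chow. The interaction called 8 genes, and 27 without dim probe sets, 24 with a trended prior, 20 after centring, 206 with age, 5 with the block and 1 at an adjusted p under 0.01. Ages within a group differed only among HET and WT mice, so the age slope rests on these. Changes that turned with age, none passing, were those of Igfals (0.70 on chow against HET, 0.62 against WT and 0.36 over both diets), Bcl6 (0.82 on HFD), Onecut2 (0.10 on chow), Keg1 (0.62 against HET and 0.30 against WT), Hsd3b5 (5.62 against HET, 3.31 against WT and 1.39 over both diets), Igfbp7 (-0.23 on HFD and -0.91 over both diets), Ptprc (-0.77), Pias2 (0.16) and Atp6v0d2 (-1.44), the last 3 over both diets. Over all named genes and these alternatives, 1224 values kept their call, or stayed uncalled and moved by less than the pooled SD within groups. The sign of these uncalled values was not checked. A call was lost with its sign kept in 108 values and lost with its sign turned in 15. A call was gained in 27 values, and 75 uncalled values moved further. Low signal limits Cish, Cux2, Lmna and the second Socs2 probe set, and 2 or 3 arrays per group limit every comparison.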
